A study of Macaca mulatta with 12 samples.

Results

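The expression of DNA repair genes was measured in 12 female rhesus monkeys, 1 animal per Affymetrix rhesus array, in the dorsal raphe, a midbrain nucleus rich in serotonin neurons. The list held 55 genes of base excision, nucleotide excision, mismatch and break repair and of damage tolerance, and 36 of them had a probe set named for them alone, out of 14132 genes so named on the array. The animals carried implants under the skin for 1 month, in 4 groups of 3: estrogen plus progesterone, estrogen, progesterone, and placebo. OVX, read here as ovariectomized, stands in the placebo titles only, so whether the hormone-treated animals had the same surgery is not given. Arrays counted here as progesterone alone are described as P, although EP appears in their titles. No age or hormone dose is given. Each sample was a tissue block of mixed cells, so fewer cells of a type and less RNA per cell cannot be told apart.

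Cells repair DNA along separate routes. In base excision repair a glycosylase removes a damaged base, a nuclease opens the strand, a polymerase fills the gap and a ligase seals it. Nucleotide excision repair cuts out a stretch of strand around a bulky lesion or a stalled RNA polymerase, and mismatch repair corrects errors of copying. Breaks through both strands are rejoined by end joining, the main route in cells that no longer divide, or repaired from a sister copy by homologous recombination. Neurons rely on base excision and end joining, since they do not divide and carry a high load of oxidative damage.

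The 36 genes had 65 probe sets, of which 46, for 28 genes, reached the level set for testing, a mean log2 intensity of 6.31 over all arrays. Values are log2 intensities after normalization, each gene is given on its brightest probe set, and the level of 1 gene cannot be set against that of another. The other 19 listed genes, POLB, POLM, XRCC1, XRCC2, LIG1, LIG4, APEX1, MPG, TDG, FEN1, XPC, DDB1, MSH3, RAD50, RAD52, MRE11, NBN, ATM and ATR, were not analysed here. The SE of a difference between 2 groups lay between 0.14 (PARP1) and 0.72 (POLK) among the tested repair genes, with a median of 0.22, the same as over all probe sets tested. The 95% interval of a difference, not adjusted for the number of probe sets, extended a median of 0.47 to each side. Smaller differences were mostly not detectable with 3 animals a group, and larger ones could also fail the stricter adjusted test.

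The first arrays of the estrogen plus progesterone, estrogen and placebo groups stood apart from the other 9 on a first principal component that carried 23.5% of the variance. On the second component (17.2%) the second and the third progesterone arrays stood at -46.3 and -54.5, the first at -14.1, and the other 9 arrays above 0. The log2 signal at the 3′ end minus that at the 5′ end of the array's EF1A control was -0.37 to -0.31 in the progesterone arrays and -0.08 to 0.74 in the other 9. For the GAPDH control it was 0.11 to 0.59 in the progesterone arrays, which overlapped with 0.34 to 1.11 in the other 9. Of 5 serotonin neuron markers, 4 had a probe set (TPH2, FEV, SLC18A2 and GCH1) and all 4 reached the level for testing. Their summed intensity was 1485 to 2010 under progesterone, against 2094 to 3166 under placebo. It was 2007 to 2688 under estrogen plus progesterone and 2363 to 3423 under estrogen. Taken singly, each of the 4 markers overlapped between progesterone and placebo. All 7 cerebellar markers had a probe set, 5 of them tested, and their sum was 2134 in the second estrogen plus progesterone array and 2980 in the second estrogen array, beside 955 to 1574 in the other 10.

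No repair gene passed the test in any comparison: limma called 0 of the 46 probe sets in each of the 5 pairwise comparisons, the effect of each hormone over 6 arrays against 6, their interaction and the F test over the 4 groups. Over all 26383 probe sets tested, limma called 0% in estrogen plus progesterone against placebo, 0% in estrogen against placebo, 0.133% in progesterone against placebo, 0% in estrogen plus progesterone against estrogen and 0.0834% in estrogen plus progesterone against progesterone. It called 0% for each hormone's effect and for the interaction, and 0.0758% in the F test. At an unadjusted p under 0.05, members numbered 1, 0, 5, 2 and 2 of 46 in the 5 pairwise comparisons in that order (2.17%, 0%, 10.9%, 4.35% and 4.35%), beside 3.85%, 2.65%, 9.87%, 2.98% and 11.4% of all probe sets. For the effect of estrogen, the effect of progesterone, the interaction and the F test the members numbered 1, 2, 4 and 2 of 46 (2.17%, 4.35%, 8.7% and 4.35%), beside 7.63%, 6.25%, 6.4% and 7.54% of all probe sets. The shares of the repair genes thus lay slightly above those of the whole array in progesterone against placebo, estrogen plus progesterone against estrogen and the interaction. Elsewhere they lay below. What follows gives values, none of them past the threshold.

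**Figure D1:**
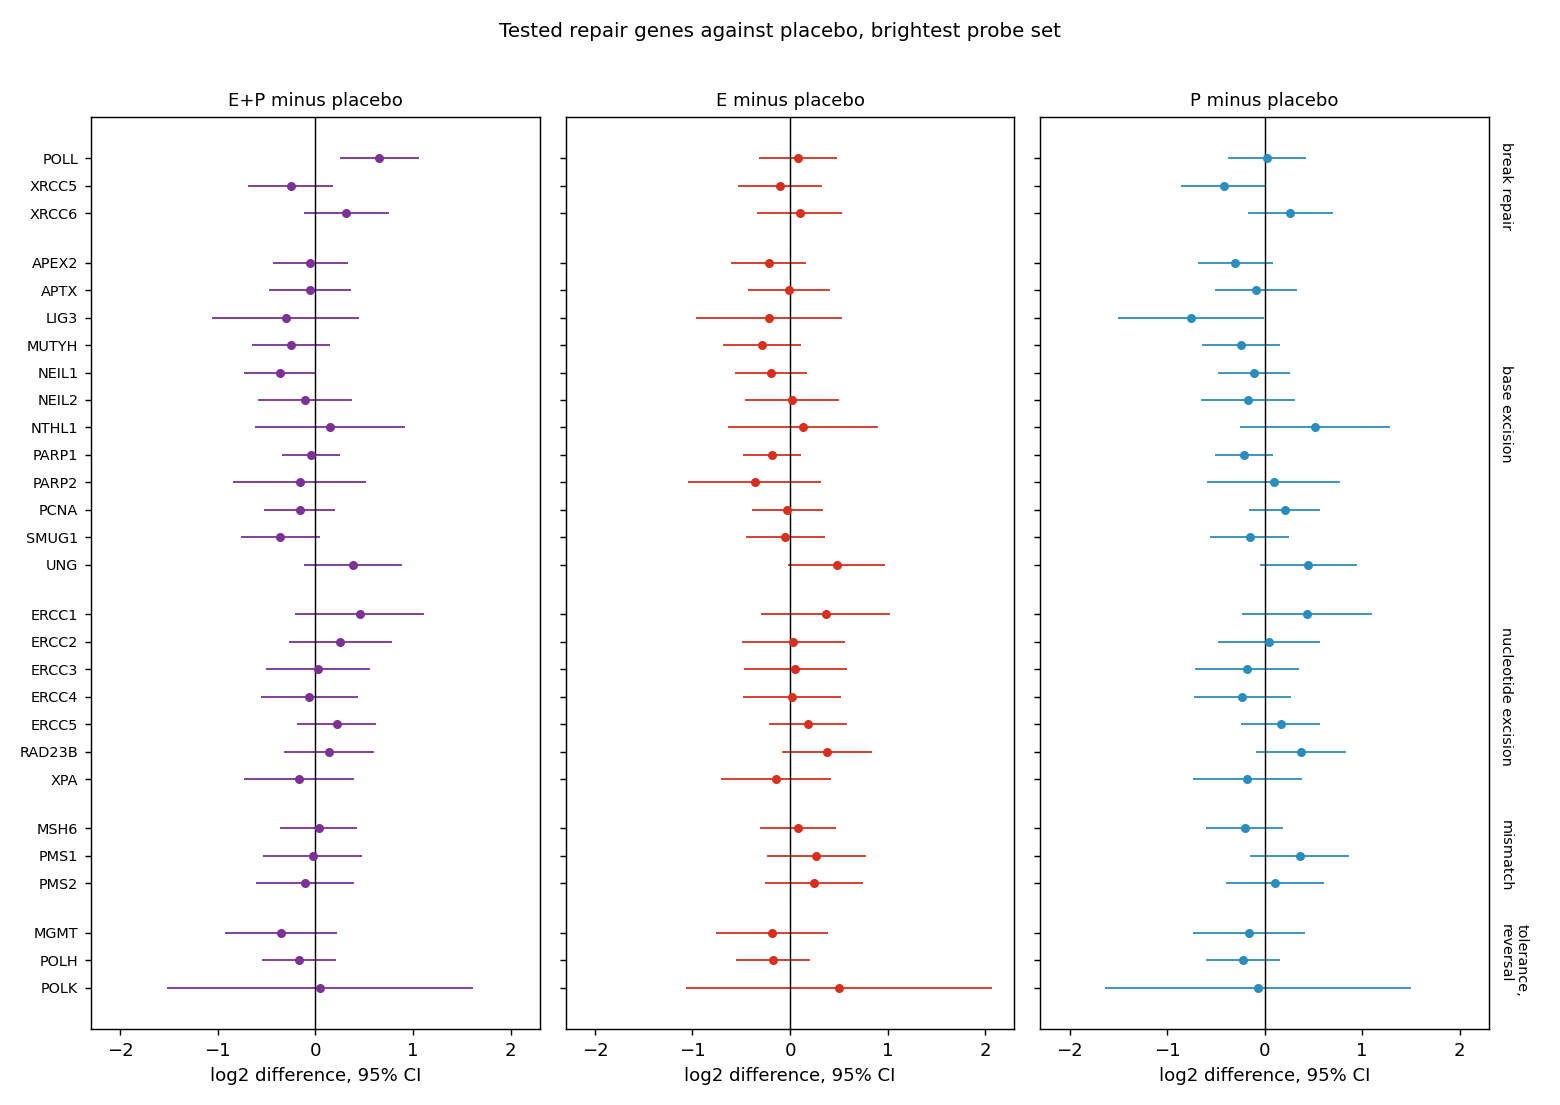
Log2 difference from placebo (x axis) of the 28 tested repair genes (y axis, grouped by pathway) under estrogen plus progesterone (left), estrogen (middle) and progesterone (right), with the limma 95% interval as a bar; n = 3 arrays per group. Of the 28 intervals in each panel, POLL's in the left panel lies clear of 0, from 0.26 to 1.06, and LIG3's in the right panel ends just below 0.

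POLL, which codes for DNA polymerase lambda, a gap-filling polymerase of end joining and base excision repair, was the repair gene with the lowest p in the combined treatment. It stood at 8.71, 8.89 and 8.77 in the estrogen plus progesterone arrays, 8.35, 8.41 and 7.88 in the estrogen arrays, 7.95, 8.17 and 8.34 in the progesterone arrays, and 8.05, 8.37 and 7.98 in the placebo arrays. All 3 arrays of the combined treatment lay above the other 9, while the estrogen, progesterone and placebo arrays overlapped. In the deposited intensities the combined treatment gave 405, 483 and 436, beside 230.4 to 344 in the other arrays. On brightest probe sets, POLL was the only 1 of the 28 tested repair genes with this pattern (3.57%), which 0.455% of all tested probe sets showed. The list and its marker POLL were chosen with earlier results of these data known, so these shares are no test of the list. They also differ in base, 1 probe set per gene against all probe sets. On its brightest probe set no other tested repair gene had the 3 arrays of any group beyond the other 9, and among the other tested probe sets 1 of APTX did, with the progesterone arrays highest. The shares of all probe sets were 0.614% below for the combined treatment, 0.273% above and 0.28% below for estrogen, 2.48% above and 2.07% below for progesterone, and 0.265% above and 0.269% below for placebo. POLL has a single probe set, so no second measurement within these arrays bears on it.

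The POLL difference from placebo under the combined treatment was 0.66 ± 0.18 (log2, SE, n = 3 per group; 95% interval 0.26 to 1.06), a fold of 1.58. Its unadjusted p was the 57th lowest of 26383, and the adjusted p from limma was 0.999. Against estrogen alone the difference was 0.57 (interval 0.17 to 0.97, limma adjusted p = 0.9999), and against progesterone alone 0.63 (0.23 to 1.04, limma adjusted p = 0.249). These 3 differences share the arrays of the combined treatment. Estrogen alone differed from placebo by 0.08 (-0.32 to 0.48) and progesterone alone by 0.02 (-0.38 to 0.42). The effect of estrogen over all groups was 0.36 ± 0.13 (SE), that of progesterone 0.30 ± 0.13, and the interaction 0.55 ± 0.26, with limma adjusted p of 0.604, 0.784 and 0.778. The interval of the interaction ran from -0.02 to 1.12.

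**Figure D2:**
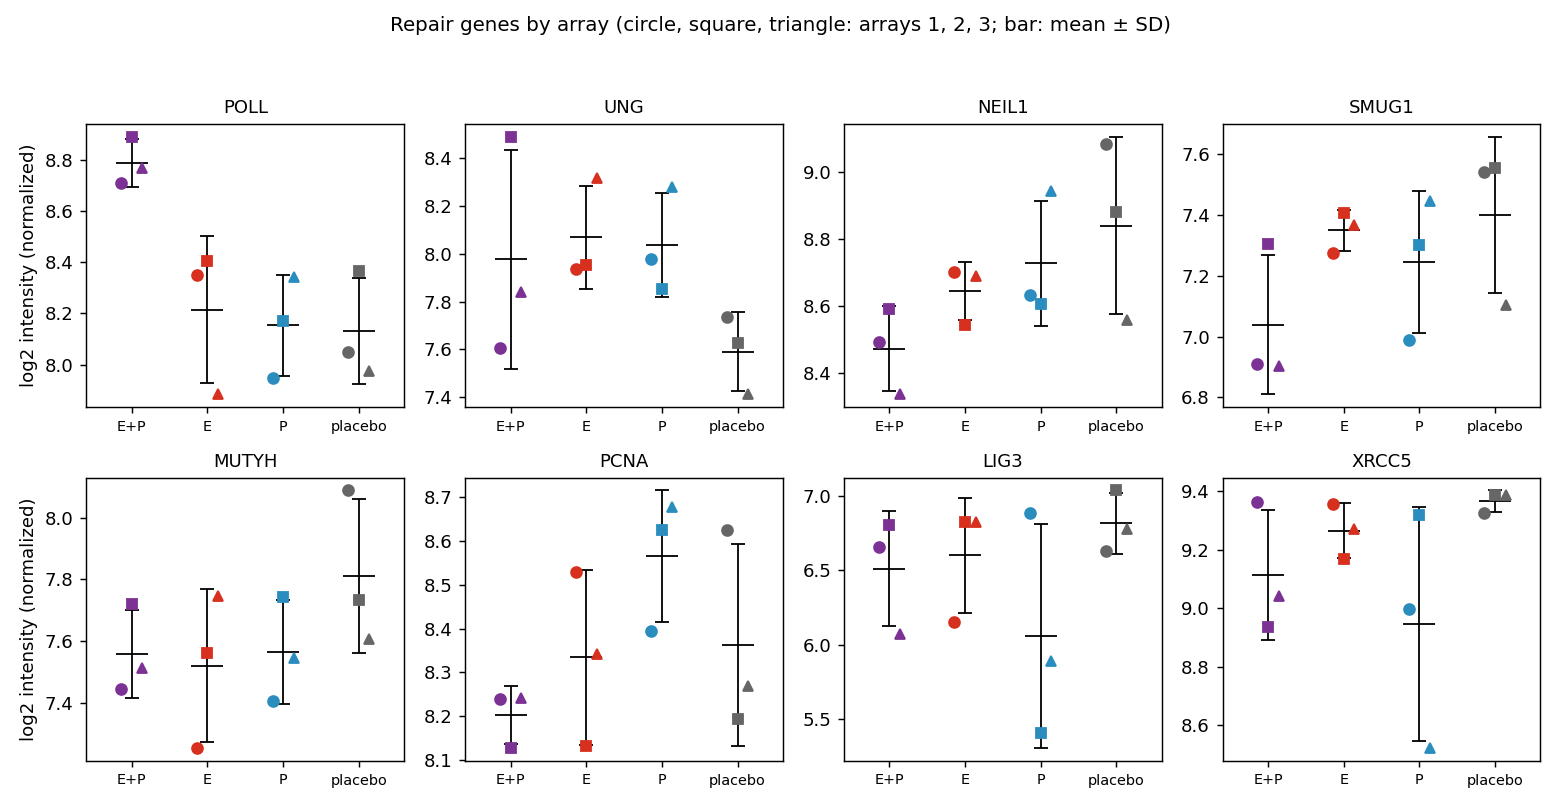
Normalized log2 intensity (y axis) of 8 repair genes in each array, by group (x axis: E+P, estrogen plus progesterone; E, estrogen; P, progesterone; placebo), with the mean and SD of 3 arrays as bars. POLL lies between 8.71 and 8.89 in the combined treatment and at or below 8.41 elsewhere. None of the other genes drawn has a group clear of all the others, but UNG, NEIL1, PCNA and XRCC5 each have groups that do not overlap.

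Apart from POLL, the break repair genes tested were those of the Ku proteins, which bind broken ends and start end joining. XRCC5, the larger Ku subunit, stood at 9.36, 8.94 and 9.04 under estrogen plus progesterone, 9.36, 9.17 and 9.27 under estrogen, 9.0, 9.32 and 8.52 under progesterone, and 9.32, 9.39 and 9.39 under placebo. The 3 progesterone arrays lay below all placebo arrays, by a mean of 0.42 ± 0.20 (log2 difference -0.42, SE, n = 3 per group, limma adjusted p = 0.522), a difference of -0.21 without the third progesterone array. Its second probe set differed by -0.13. XRCC6, the smaller Ku subunit, had positive differences from placebo on its brightest probe set: 0.32 (interval -0.12 to 0.75) under the combined treatment, 0.10 (-0.34 to 0.53) under estrogen and 0.26 (-0.17 to 0.70) under progesterone. Its estrogen difference changed sign when the second estrogen array was left out (-0.09), and its other 2 tested probe sets gave -0.30 and 0.06 under estrogen. XRCC5 had negative differences in the same 3 comparisons (-0.25, -0.10 and -0.42), all with intervals that include 0. The unequal signs of the subunits were not tested.

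Among the glycosylases, which start base excision repair, UNG had higher values in most hormone-treated arrays. UNG removes uracil from DNA. It stood at 7.61, 8.49 and 7.84 under estrogen plus progesterone, 7.94, 7.95 and 8.32 under estrogen, 7.98, 7.85 and 8.28 under progesterone, and 7.73, 7.63 and 7.41 under placebo. The estrogen and progesterone arrays all lay above the placebo arrays, and the first array of the combined treatment lay within their range. The differences from placebo were 0.39 ± 0.23 (SE), 0.48 ± 0.23 and 0.45 ± 0.23, with limma adjusted p of 0.999, 0.9997 and 0.562, and the first of these was 0.13 without the second array of the combined treatment. The 3 differences share the placebo arrays.

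NEIL1 and SMUG1, glycosylases for oxidized bases and for uracil and its derivatives, had their lowest means under the combined treatment. NEIL1 stood at 8.49, 8.59 and 8.34 there, at 8.70, 8.54 and 8.69 under estrogen, 8.63, 8.61 and 8.94 under progesterone, and 9.08, 8.88 and 8.56 under placebo. Its combined-treatment arrays lay below all progesterone arrays but overlapped with the third placebo array. The difference from placebo was -0.37 (interval -0.73 to 0.00, limma adjusted p = 0.999). SMUG1 stood at 6.91, 7.30 and 6.90 under the combined treatment, 7.27, 7.41 and 7.37 under estrogen, 6.99, 7.30 and 7.45 under progesterone, and 7.54, 7.56 and 7.10 under placebo. Its difference from estrogen was -0.31 (-0.72 to 0.09), and from placebo -0.36 (-0.77 to 0.04), but its second probe set went the other way (0.11 and 0.16).

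MUTYH, which removes adenine paired with oxidized guanine, stood at 7.44, 7.72 and 7.51 under the combined treatment, 7.26, 7.56 and 7.75 under estrogen, 7.41, 7.74 and 7.55 under progesterone, and 8.09, 7.73 and 7.61 under placebo. The first placebo array was the highest of the 12 and the other 2 overlapped with all hormone groups. The estrogen difference was -0.29 (-0.69 to 0.11), -0.15 without that array and -0.02 without the first arrays of the 3 groups that stood apart. NTHL1, a glycosylase for oxidized pyrimidines, lay above placebo in all 3 progesterone arrays (0.52, interval -0.25 to 1.29). NEIL2, a glycosylase related to NEIL1, differed from placebo by -0.11, 0.02 and -0.17 under the combined treatment, estrogen and progesterone.

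Later steps of base excision repair showed small differences. PARP1, which senses strand breaks and builds poly(ADP-ribose), stood at 9.94, 10.07 and 10.21 under the combined treatment, 9.94, 9.80 and 10.05 under estrogen, 9.89, 9.90 and 9.92 under progesterone, and 10.22, 10.07 and 10.07 under placebo. The estrogen and the progesterone arrays all lay below placebo, as they did for 3.98% and 7.86% of all probe sets. The PARP1 differences were only -0.19 ± 0.14 (SE) and -0.21 ± 0.14 (limma adjusted p = 0.9997 and 0.659). APEX2, an abasic-site nuclease, lay below placebo in the 3 progesterone arrays (-0.30, interval -0.69 to 0.08). PARP2, a relative of PARP1, differed by -0.16, -0.36 and 0.09 under the combined treatment, estrogen and progesterone, with intervals that include 0.

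PCNA, the sliding clamp of replication and repair synthesis, was lower under the combined treatment than under progesterone. It stood at 8.24, 8.13 and 8.24 in the combined arrays and 8.39, 8.63 and 8.68 in the progesterone arrays, without overlap, and at 8.53, 8.13 and 8.34 under estrogen and 8.63, 8.19 and 8.27 under placebo. The difference was -0.36 ± 0.17 (SE, n = 3 per group, limma adjusted p = 0.438). Markers of dividing cells, for which 7 of 9 genes had a probe set, summed to an intensity of 787 to 865 in the combined arrays and 797 to 866 in the progesterone arrays; their part in the result was not tested.

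LIG3, the ligase that seals repaired strands with XRCC1 and in mitochondria, had the lowest p of the lower genes under progesterone. It stood at 6.66, 6.80 and 6.07 under the combined treatment, 6.16, 6.82 and 6.82 under estrogen, 6.88, 5.41 and 5.89 under progesterone, and 6.63, 7.04 and 6.78 under placebo. The first progesterone array lay inside the placebo range and the other 2 below it. The difference was -0.75 ± 0.34 (SE, n = 3 per group, limma adjusted p = 0.504), but -0.43 without the second progesterone array and -1.17 without the first. The low arrays are those that stood apart on the second component, whose part in the result was not tested. Its second tested probe set differed by -0.70 with a larger spread. LIG3 is also the tested gene nearest to the level set for testing.

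APTX, aprataxin, which clears failed ligation ends from strand breaks and is mutated in a human ataxia, had 6 tested probe sets, and they disagreed. Under progesterone the differences from placebo ran from -0.53 to 1.01, 3 of them positive and 3 negative. The set MmugDNA.29388.1.S1_s_at stood at 8.48, 8.79 and 8.58 under progesterone, against 6.86, 7.95 and 8.02 under placebo (1.01 ± 0.28, SE, limma adjusted p = 0.251). Its 3 progesterone arrays lay above all other 9, and of the repair probe sets tested in this comparison it had the lowest p. A companion set for the same target, MmugDNA.29388.1.S1_at, differed by 0.80 and MmugDNA.10580.1.S1_at by 0.45, each with its 3 progesterone arrays above placebo. MmugDNA.1922.1.S1_at went the other way, at 8.11, 8.19 and 7.80 under progesterone, against 8.76, 8.31 and 8.61 under placebo (-0.53 ± 0.19). The brightest set, MmugDNA.27983.1.S1_at, differed by -0.09 (interval -0.51 to 0.33) and the dimmest by -0.09. The 2 sets with the largest positive differences were lowest of all 12 arrays in the first placebo array, at 6.86 and 6.55.

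**Figure D3:**
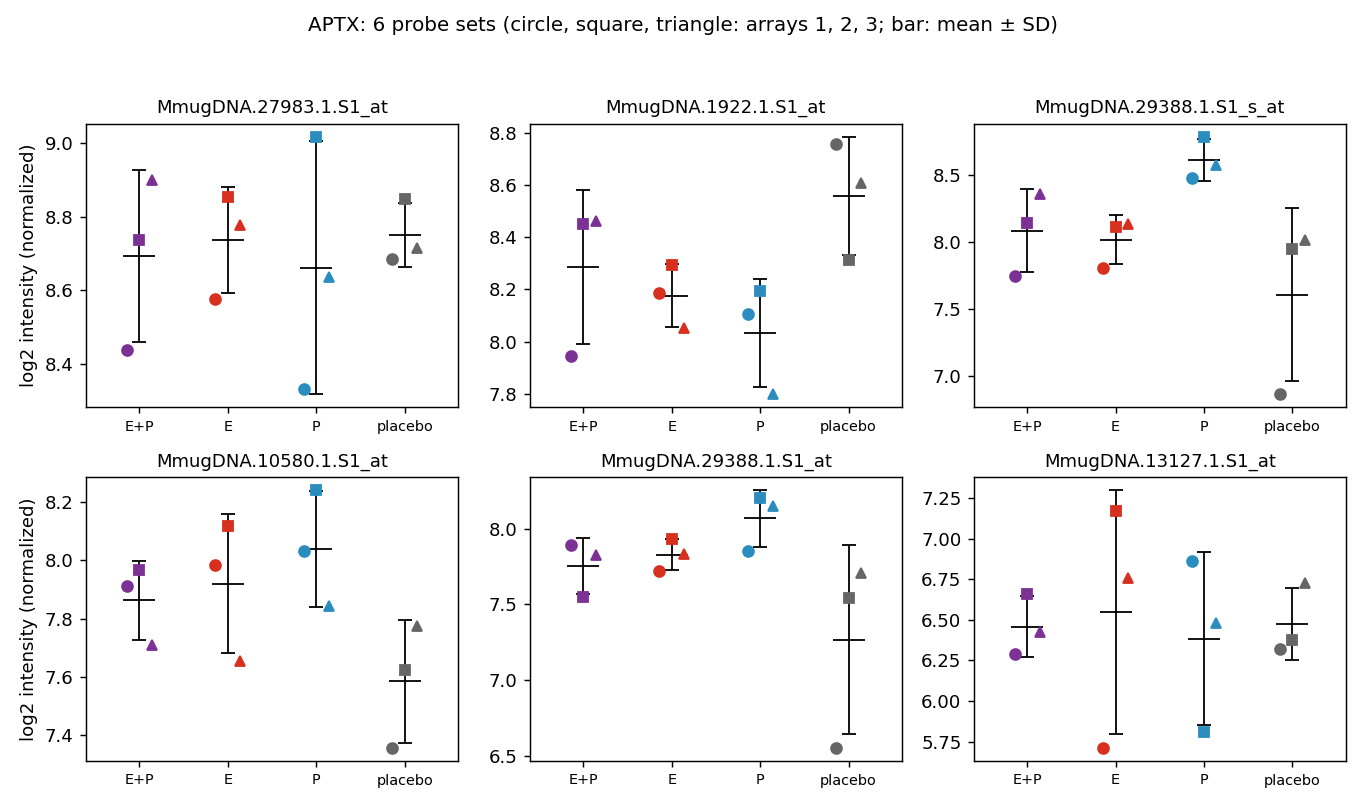
Normalized log2 intensity (y axis) of the 6 probe sets named APTX in each array, by group (x axis: E+P, estrogen plus progesterone; E, estrogen; P, progesterone; placebo), ordered from the brightest set to the dimmest, with the mean and SD of 3 arrays. The progesterone minus placebo difference ranges between -0.53 and 1.01 across sets that carry the same gene name.

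The probe sets of 1 gene disagreed elsewhere too. Of the 10 genes with more than 1 tested probe set, all sets had the same sign for 5 under the combined treatment, 4 under estrogen and 8 under progesterone, each against placebo. Under progesterone the arrays stood clear above placebo for 6 of 46 repair probe sets (13%, beside 7.41% of all probe sets) and below them for 4 (8.7%, beside 7.86%), and APTX gave 3 of the 6 and 1 of the 4. On the brightest probe set of each gene the counts were 2 and 3 of 28. The estrogen arrays lay above placebo for 2 of 46 (4.35%, beside 3.56%) and below it for 3 (6.52%, beside 3.98%). The combined arrays lay above placebo for 1, POLL (2.17%, beside 4.68%), and below it for 0 (beside 5.84%).

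Nucleotide excision repair genes had small differences of mixed sign. RAD23B, a partner of the damage sensor XPC, stood at 9.96, 9.97 and 10.11 under the combined treatment, 10.14, 10.40 and 10.24 under estrogen, 10.47, 10.11 and 10.18 under progesterone, and 9.36, 10.05 and 10.22 under placebo. The first placebo array was the lowest of all 12, and the combined arrays lay below all estrogen arrays. The differences from placebo were 0.14, 0.38 and 0.37, and -0.12, 0.12 and 0.12 without that array. Its other 2 tested probe sets were also lower under the combined treatment than under estrogen, by a log2 difference of -0.26 and -0.47 beside -0.24 on the brightest, with limma adjusted p of 0.9999. ERCC1, a subunit of the nuclease that cuts 5′ of the lesion, stood at 7.72, 7.81 and 8.13 under the combined treatment, 7.89, 7.96 and 7.56 under estrogen, 7.45, 8.32 and 7.84 under progesterone, and 7.41, 6.82 and 8.08 under placebo. Its differences of 0.45, 0.37 and 0.43 were 0.15, 0.06 and 0.13 without the second placebo array.

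The helicases of transcription factor TFIIH, ERCC2 and ERCC3, differed from placebo by 0.26 and 0.03 under the combined treatment, 0.03 and 0.05 under estrogen, and 0.04 and -0.18 under progesterone. The nuclease genes ERCC4 and ERCC5 and the damage verifier XPA differed by -0.06, 0.22 and -0.17 under the combined treatment, 0.02, 0.18 and -0.14 under estrogen, and -0.23, 0.16 and -0.18 under progesterone. Every one of these intervals includes 0. ERCC5 had 4 tested probe sets, with 1, 2 and 2 of them positive.

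The genes of mismatch repair were measured for the recognition subunit MSH6 and for PMS1 and PMS2, partners in the complex that acts after recognition. MSH6 stood at 8.20, 8.28 and 8.18 under the combined treatment and 8.02, 8.18 and 7.74 under progesterone, against 8.0, 8.23 and 8.58 under estrogen and 8.35, 8.03 and 8.17 under placebo. The combined arrays lay just above the progesterone arrays (0.24, interval -0.15 to 0.63), by 0.12 without the third progesterone array. PMS1 stood at 7.72, 8.03 and 8.29 under the combined treatment, 8.21, 8.42 and 8.30 under estrogen, 8.63, 8.30 and 8.26 under progesterone, and 7.53, 8.44 and 8.15 under placebo, so that all groups overlapped with placebo. The progesterone difference was 0.36 (-0.15 to 0.87), and 0.10 without the first placebo array, which was the lowest of the 12. PMS2 differed from placebo by -0.11, 0.25 and 0.11 under the combined treatment, estrogen and progesterone. Without the first placebo array its estrogen difference was 0.0439 and its progesterone difference -0.10, and without the second its difference under the combined treatment was 0.0766.

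Damage tolerance lets replication pass a lesion, and direct reversal removes a modification without cutting. POLH, a polymerase that copies past ultraviolet lesions, stood at 7.52, 7.09 and 7.29 under the combined treatment, 7.10, 7.42 and 7.36 under estrogen, 7.02, 7.51 and 7.20 under progesterone, and 7.50, 7.53 and 7.38 under placebo. MGMT, which takes alkyl groups off guanine, stood at 6.06, 6.90 and 7.13 under the combined treatment, 6.79, 6.96 and 6.84 under estrogen, 6.50, 7.02 and 7.15 under progesterone, and 7.24, 7.07 and 6.83 under placebo. All hormone groups overlapped with placebo for both genes. POLK, another translesion polymerase, had an SD of 1.53 under placebo, where the first array stood at 5.02 beside 7.72 and 7.60, and its values support no comparison.

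By pathway, base excision genes were lower than placebo in 10 of 12 under the combined treatment, 9 under estrogen and 8 under progesterone, with median log2 differences of -0.13, -0.12 and -0.13. The 3 counts share the placebo arrays. The median of these genes relative to their own means was 0.21 in the first placebo array, 0.09 in the second and 0.00 in the third, beside -0.22 in the first array of the combined treatment. Of all 20 tested base excision probe sets, 7, 8 and 8 were higher than placebo. Among all probe sets tested 47.9%, 48.7% and 46.7% were higher. Nucleotide excision genes were higher in 5, 6 and 4 of 7 (medians 0.14, 0.05 and 0.04), mismatch genes in 1, 3 and 2 of 3 (medians -0.03, 0.25 and 0.11) and break repair genes in 2, 2 and 2 of 3 (medians 0.32, 0.08 and 0.02). The 3 break repair genes include POLL, the marker of the list, at 0.66 under the combined treatment. The others are XRCC6 at 0.32 and XRCC5 at -0.25. The 3 tolerance and reversal genes had medians of -0.17, -0.17 and -0.16. Over all 28 genes the medians were -0.06, 0.02 and -0.10, beside -0.01, -0.01 and -0.02 over all probe sets tested. With 1 array left out they ran from -0.10 to -0.00742, from -0.0327 to 0.0189 and from -0.12 to -0.0463. Without quantile normalization the median of all probe sets moved to -0.12 in progesterone against placebo, and that of the repair genes to -0.21.

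**Figure D4:**
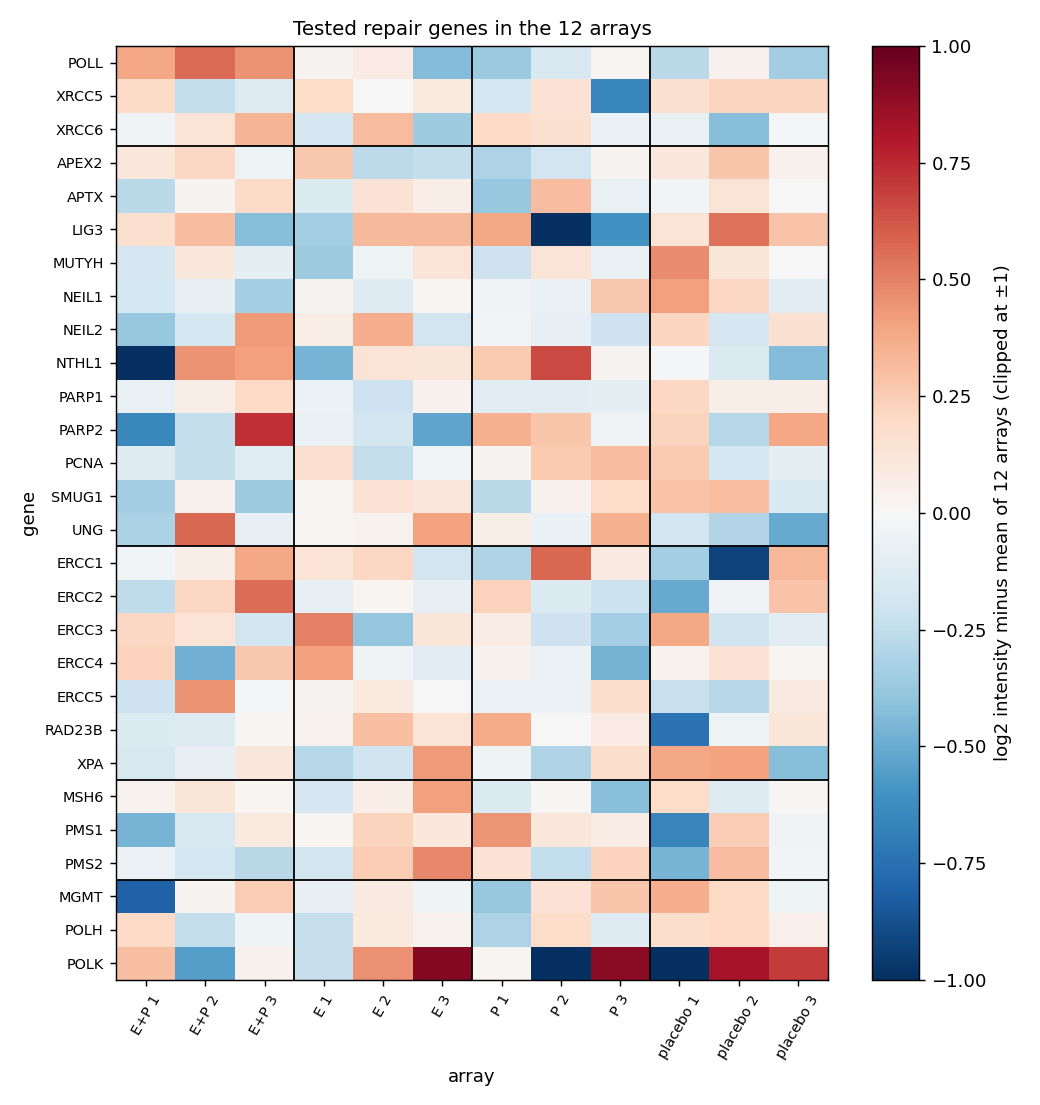
Log2 intensity of the 28 tested repair genes (rows, grouped by pathway: break repair, base excision, nucleotide excision, mismatch, tolerance and reversal) in the 12 arrays (columns; E+P, estrogen plus progesterone; E, estrogen; P, progesterone), each relative to the gene's mean over all arrays and clipped at ±1. The first placebo array was the highest or lowest of the 12 for 9 of 28 genes, and any other array for 2 to 7.

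The 8 repair genes below the level set for testing were OGG1, BRCA1, BRCA2, XRCC3, XRCC4, DDB2, ERCC6 and ERCC8, with means from 4.02 (BRCA2) to 6.25 (ERCC6). The highest mean among 24 bacterial control probe sets was 5.60, so OGG1, BRCA1, BRCA2, XRCC3 and ERCC8 lay on average within the range of those controls. The control means are log2 intensities before normalization and the gene values are after it, so comparisons with 5.60 are approximate. In the fit of all 52766 probe sets with no such level, none of these 8 passed in any comparison, with limma adjusted p of at least 0.0804. That fit called 0.0019% of probe sets in estrogen plus progesterone against placebo, 0.0019% in estrogen against placebo, 0.0587% in progesterone against placebo and 0.0303% in estrogen plus progesterone against progesterone. The following genes were singled out after their values were seen.

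ERCC6, the transcription-coupled repair protein of Cockayne syndrome, was 0.06 short of the level for testing. It stood at 7.26, 6.97 and 6.72 under progesterone, against 5.93, 5.94 and 5.88 under placebo, and at 6.28, 5.56 and 6.15 under the combined treatment and 6.05, 6.08 and 6.21 under estrogen. The progesterone arrays lay above all other 9. The difference from placebo was 1.07 ± 0.21 (log2, SE, n = 3 per group, limma adjusted p = 0.168 with no level set), and the combined treatment differed from progesterone by -0.99 (limma adjusted p = 0.223). ERCC8, its partner in transcription-coupled repair, stood at 3.42, 2.38 and 2.69 under progesterone, against 3.72, 4.72 and 4.82 under placebo. It stood at 4.76, 5.07 and 5.10 under the combined treatment and 4.44, 4.49 and 4.54 under estrogen. The progesterone arrays lay below all other 9, but every value lay below the highest control mean, so no size of difference is given.

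BRCA1, of homologous recombination, stood at 5.71, 6.39 and 6.31 under progesterone, against 5.27, 5.0 and 3.54 under placebo (1.54 ± 0.70, SE, limma adjusted p = 0.624). Under the combined treatment it stood at 2.52, 4.84 and 5.56 and under estrogen at 5.23, 5.39 and 5.18, so the progesterone arrays lay above the other 9 here too. Those 9 values all lay below the highest control mean of 5.60, so the size of the BRCA1 difference is uncertain. XRCC3, of the same route, stood at 4.37, 2.97 and 3.37 under progesterone, against 5.40, 4.81 and 5.27 under placebo. The progesterone arrays did not overlap with placebo but did overlap with the combined treatment (4.73, 5.22 and 4.31) and estrogen (4.04, 5.84 and 4.60). All progesterone and placebo values of XRCC3 lay below the highest control mean, and the size of the difference is not given, as for ERCC8. Among all 26383 probe sets below the level for testing, 1.4% had the 3 progesterone arrays above the other 9 and 0.739% had them below. The progesterone arrays were also those with the lowest EF1A 3′ minus 5′ signal given above, though their GAPDH signal overlapped with that of the others. The part of either signal in these values was not tested.

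**Figure D5:**
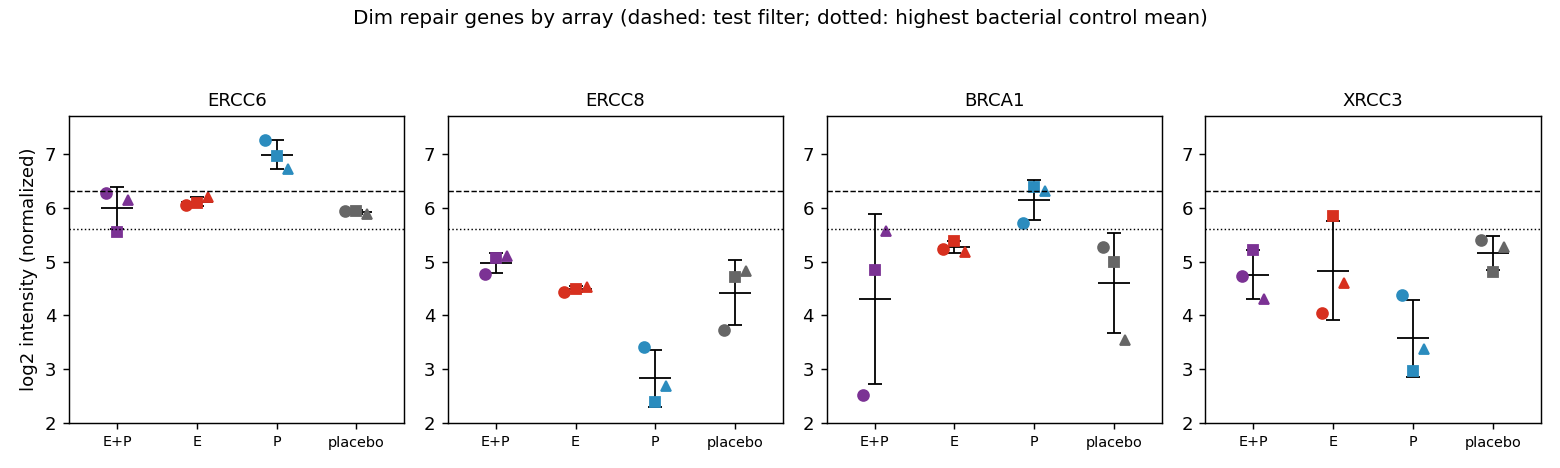
Normalized log2 intensity (y axis) of ERCC6, ERCC8, BRCA1 and XRCC3 in each array, by group (x axis: E+P, estrogen plus progesterone; E, estrogen; P, progesterone; placebo), with mean and SD of 3 arrays. The dashed line marks the level for testing (6.31). The dotted line marks the highest mean of the bacterial controls (5.60), taken before normalization. The progesterone arrays stand above the rest for ERCC6 and BRCA1 and below the rest for ERCC8, where all values lie under the dotted line.

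A further list of 81 genes of the same pathways and of the damage checkpoint, which holds the replication factors, the TFIIH subunits and the Fanconi anemia proteins, had 57 with a probe set and 43 tested. None passed in either direction in any comparison. Of the 43, 19 were higher under the combined treatment, 27 under estrogen and 20 under progesterone, each against placebo, with medians of -0.02, 0.03 and -0.03. The lowest p under the combined treatment belonged to RAD9A (0.49 ± 0.31, SE), a checkpoint clamp subunit, among the higher and TDP2 (-0.34 ± 0.18), which frees trapped topoisomerase from breaks, among the lower. Under estrogen they were FANCM (0.42 ± 0.25), a Fanconi anemia helicase, and DCLRE1C (-0.31 ± 0.14), the end-trimming nuclease Artemis. Under progesterone WRN, the Werner syndrome helicase, had the lowest p among the higher (0.57 ± 0.26), and DCLRE1C was among the lower (-0.39 ± 0.14), where it did not have the lowest p, with limma adjusted p of 0.499 and 0.382.

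Between the combined treatment and progesterone, the combined arrays lay above for 4 of 46 repair probe sets and below for 4 (8.7% each), beside 8.4% and 8.6% of all probe sets. Between the combined treatment and estrogen they lay above for 1, POLL, and below for 2 (2.17% and 4.35%, beside 4.04% and 4.05%). In the wider list, PARP3 was 0.61 ± 0.20 higher on the log2 scale in the combined arrays than in the progesterone arrays (SE, limma adjusted p = 0.292).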

How the data were processed

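Total RNA was extracted with Trizol and RNeasy columns and labelled with biotin, per the labels' protocols. Each probe set has 1 deposited intensity per array, on a linear scale. The trimmed mean of the deposited intensities (2% cut at each end) averaged 200.0 over the 12 arrays, so arrays had probably been scaled to a common level before deposit. The software and build are not given in the sources used here, and genomic positions were not used.

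After removal of 99 controls, 52766 of 52865 probe sets were given a floor at an intensity of 4.96 (the 5th percentile), log2 transformed and quantile normalized, since array medians differed by more than 0.15 (6.15 to 6.62). The 26383 whose mean reached the median of the means were fitted with limma 3.58.1 in R 4.3.3 (1 mean per group, 12 arrays, 8 residual and 3.54 prior degrees of freedom). P-values are two-sided and adjusted by Benjamini-Hochberg over the 26383 at a threshold of 0.05. Genes were named from the platform's gene table, using probe sets with 1 symbol. Steps were tested on simulated data. An exact permutation test of 3 arrays against 3 cannot go below p = 0.1. Plots used matplotlib 3.10.9 (Python 3.11.15).

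Values in every array are given for POLL, the 2 genes of each pathway with the lowest F test p, and the gene with the lowest p in each direction of each pairwise comparison. PARP1, APTX, POLK, ERCC6, ERCC8, BRCA1 and XRCC3 lie outside this rule and were picked with their values in view. In some comparisons the gene of the wider list with the lowest p is not reported here. The members and lists were chosen with earlier results of these data known.

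Replicates are numbered 1 to 3 in every group, although each chip holds its own monkey, per the labels. From the data alone, deviations of same-numbered arrays correlated by 0.103 to 0.274 between estrogen plus progesterone and placebo. They correlated by 0.142 to 0.507 between estrogen plus progesterone and estrogen. All 3 pairs in each case passed the limit of 0.1 set for pairing. Arrays with different numbers correlated by -0.254 to 0.115 and by -0.408 to 0.267, in the same order. The highest value in each of these ranges exceeded the lowest same-numbered value, so the correlations do not establish pairing by number. The fit reported has no block, and overlap between groups was judged without pairing; the blocked fit changed no call among the repair genes. Between the other groups compared some or all pairs fell short.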

Additional observations from a re-analysis of the deposited data

How the results depend on the processing

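The alternatives were median alignment instead of quantile normalization, dropping the filter, raising it to the 75th percentile, raising the floor to the 25th percentile, the brightest probe set of each gene only, the groups compared only, the replicate block, each array left out in turn, and the 3 arrays apart on the first component left out together. Under each of them 0 repair probe sets passed in every comparison. The 10 differences for which a gene was named by its p (POLL, UNG, NEIL1, MUTYH, LIG3, SMUG1 and PCNA) kept their sign under every alternative that tested them. POLL ranged from 0.58 to 0.77 against placebo, from 0.41 to 0.68 against estrogen and from 0.53 to 0.73 against progesterone under the combined treatment.

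The median log2 difference of the repair genes moved by more than the spread between arrays in 12 cases. Where the genes stayed the same, the cause was not tested. It was 0.0307 in estrogen plus progesterone against placebo and 0.11 in estrogen plus progesterone against progesterone without the 3 arrays apart. With median alignment it was -0.21 in progesterone against placebo, -0.12 in estrogen plus progesterone against estrogen and -0.17 in progesterone present against absent. With the filter at the 75th percentile it was -0.0330 in progesterone against placebo and -0.00279 in progesterone present against absent. That filter left fewer repair genes, so these medians are not over the same genes as the main ones. With 1 array left out it ran from -0.12 to 0.0388 in estrogen plus progesterone against estrogen, from -0.0198 to 0.11 in estrogen plus progesterone against progesterone, and from -0.0706 to 0.10 in the interaction.

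With the replicate block the POLL difference from placebo was 0.66 (limma adjusted p = 0.997), no call changed among the repair genes, and the probe sets called over the whole array in progesterone against placebo were 20, beside 35 without it. That count was 0 with the groups compared only or the brightest probe sets only, and 5 to 55 with 1 array left out. Precision is limited by 3 arrays a group and, for 5 of the 8 dim genes, by a mean signal within the range of the control probe sets.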
